A study of Mus musculus with 8 samples.

Results

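The heat shock chaperones described here are 10 listed genes: the stress-inducible cytosolic HSP70 pair Hspa1a and Hspa1b, the constitutive HSP70 Hspa8, the HSP110 protein Hsph1, the J-domain co-chaperones Dnaja1 and Dnajb1, the small heat shock proteins Hspb1 and Hspb8, and the mitochondrial chaperonin Hspd1 with its co-chaperonin Hspe1. They were chosen by name, and a probe counted as theirs when the array names it by a RefSeq transcript of the gene. This gave 15 probes for 9 of the 10 genes, among 39429 probes on the array and 26148 genes tested. No probe is assigned to Hspa1b by this rule, and all 9 genes with a probe passed the background filter. The cells were mouse peritoneal macrophages, the phagocytes of the abdominal cavity, cultured in low-glucose medium with 20% fetal bovine serum. They received LECT2 (the liver-derived plasma protein leukocyte cell-derived chemotaxin 2) at 0.5 µg/ml (low dose) or 5 µg/ml (high dose), or none, for 3.5 h or 48 h. No genotype, strain, sex or age of the mice is given in the labels. Each of 8 2-colour arrays carried LECT2-treated and untreated cells of the same time, giving 4 groups of 2 arrays, and replicates 1 and 2 of a group are independent experiments with different mice. The labels do not say whether both doses of an experiment were set against the same untreated culture. LECT2-treated cells carried the same dye on all 8 arrays, so dye and treatment cannot be told apart in any LECT2 ratio.

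Heat shock chaperones bind unfolded proteins and keep them from aggregating. HSP70 proteins bind and release short hydrophobic stretches in a cycle driven by ATP, J-domain proteins deliver clients and trigger ATP hydrolysis, and HSP110 proteins act as nucleotide exchange factors. Small heat shock proteins hold unfolded clients without using ATP, and Hspd1 and Hspe1 form the folding chamber of the mitochondrial matrix. Heat shock factor 1 induces many of these genes by binding heat shock elements, which are inverted repeats of a short GAA-containing unit.

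Values are given as the log2 ratio of LECT2 to control in the deposited table, so 0 is no difference, and a gene is called when its limma p-value, adjusted by the Benjamini-Hochberg method over all genes tested, is below 0.05. The deposited table and the scanner files conflict: 7 of the 8 columns of the deposited table match a scanner file that is recorded under another sample, and the eighth column, replicate 1 of the low dose at 3.5 h, correlates at r = 0.781 with its own file. The deposited table was used as labelled. With the scanner files taken as recorded, none of the 9 chaperones was called in any comparison, and 0 of all genes were called in the effects at 3.5 h. The labelled cell type was checked against its markers, and 9 of 9 macrophage markers with a probe were above background on all control arrays. Some macrophage markers were themselves called. Lyz2 (-2.01) and Csf1r (-1.03) were lower and Cd14 (2.77) higher at the high dose and 3.5 h. Gata6 was lower at the low dose and 3.5 h (-1.03) and at the high dose and 48 h (-1.35), and Timd4 was higher at the low dose and 3.5 h (1.11). Their part in the chaperone results was not tested. Markers of other cells were also measured above background on all control arrays, among them 6 of 8 for T and NK cells, 5 of 5 for B cells and 4 of 6 for mesothelial cells and fibroblasts. In such bulk samples a lower number of cells of one type and less RNA per cell cannot be told apart. Among red blood cell markers Hbb-b2 and Hba-a2 were called higher with LECT2 at both doses at 3.5 h, with a summed LECT2 minus control signal of 0.75 to 2.25 there and 0.04 to 0.26 at 48 h, and their part in the early chaperone results was not tested. Over all genes the median standard error of a LECT2 effect was 0.28, that of a difference of 2 effects was 0.40, and having 2 arrays a group limits the precision.

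The upstream sequences of 4 chaperone loci are shown for the heat shock element matches that they hold, share or lack. Whether a match goes with a call was not tested. The sequences come from RefSeq on build GRCm38.p6 and run 5′ to 3′ toward the named gene, and capitals mark heat shock element matches. Hspd1 and Hspe1 lie head to head, and the 215 bases between one annotated start of Hspd1 and the start of Hspe1 (chr1:55087933-55088147, plus strand) hold 1 run of 4 units, from 89 to 72 bases before Hspe1 and from 144 to 127 bases before Hspd1.
Hspd1-Hspe1: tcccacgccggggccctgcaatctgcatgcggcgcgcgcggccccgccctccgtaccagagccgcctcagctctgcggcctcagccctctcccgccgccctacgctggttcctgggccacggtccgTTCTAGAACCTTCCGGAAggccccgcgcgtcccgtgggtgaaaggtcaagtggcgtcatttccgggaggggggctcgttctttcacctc
The 150 bases before Hspa1a (chr17:34972157-34972306, minus strand) and before Hspa1b (chr17:34959239-34959388, minus strand) show how close this gene pair is. They differ at 1 base, 99.3% identity, and each holds a 2-unit match from 104 to 97 bases before the start.
Hspa1a: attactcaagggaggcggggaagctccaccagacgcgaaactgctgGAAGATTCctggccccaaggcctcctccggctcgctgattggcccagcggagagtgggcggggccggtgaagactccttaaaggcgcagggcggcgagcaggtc
Hspa1b: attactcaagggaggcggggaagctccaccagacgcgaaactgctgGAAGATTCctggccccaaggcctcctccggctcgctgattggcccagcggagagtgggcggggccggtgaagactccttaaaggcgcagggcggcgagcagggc
Hspb8, the gene with the lowest mean ratio at 3.5 h, has no match in its 250 upstream bases, of which the last 150 (chr5:116422865-116423014, minus strand) are shown.
Hspb8: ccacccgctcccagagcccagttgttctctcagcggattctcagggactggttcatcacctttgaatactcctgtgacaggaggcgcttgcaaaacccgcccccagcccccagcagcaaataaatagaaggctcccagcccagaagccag

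The motifs searched were the 2-unit forms GAANNTTC and TTCNNGAA and the longer forms GAANNTTCNNGAA, TTCNNGAANNTTC and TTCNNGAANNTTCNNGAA, in the 250 bases before each start. Both 2-unit forms and the 4-unit form read the same on either strand, the 3-unit forms are each other's reverse complement, and the longer forms contain the 2-unit ones. Of 10 chaperone genes 9 had a window, and 7 had a 2-unit match in at least 1 window. Counted by gene in the same way, 12 of 66 genes of the pathway lists described below had such a match. Counted by window, which is another measure, the share was 12.8% of all 32851 windows. The pairs Hspa1a and Hspa1b, and Hspd1 and Hspe1, share their match, so the 7 genes are not separate observations. A 3-unit match was present in 2 of the chaperone genes (Hspd1 and Hspe1), in 1 of the 66 pathway list genes and in 0.466% of all windows. The 4-unit form was present in 4 windows of all, 2 of which are those of Hspd1 and Hspe1. Hspb1 had 2 matches, Hsph1 had 1 close to its start, and Dnaja1 had 1 at the first of its 3 annotated starts. Dnajb1 and Hspb8 had none, and Hspa8 is named only. A match is a stretch of letters, not a measured binding site.

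**Figure D1:**
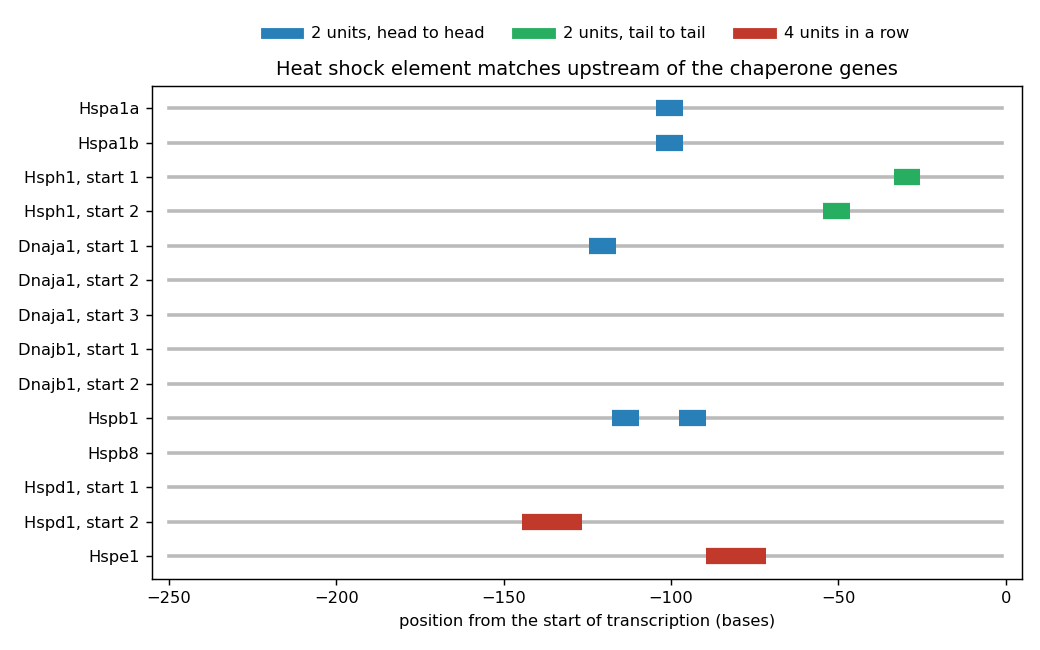
Positions of heat shock element matches in the 250 bases before each annotated start of the chaperone genes, in bases from the start (horizontal axis); each grey line is 1 window and coloured blocks are matches. Hspd1 (start 2) and Hspe1 carry the 4-unit run, and Dnajb1 and Hspb8 carry no match.

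At the high dose and 3.5 h LECT2-treated macrophages had less transcript of 3 chaperones: the small heat shock protein Hspb8, the chaperonin Hspd1 and its partner Hspe1. Hspb8 also fell at the low dose and 3.5 h. None of the 9 genes was called higher in any of the 4 groups, and the stress-inducible Hspa1a, whose ratio was positive on all 4 arrays at 3.5 h, did not pass the test at either dose. At 3.5 h the low dose called 1 of 9 chaperones, a fall, against 4.9% of all genes called in either direction and 2.14% called lower. The high dose called 3 of 9 at that time, all lower, against 21.9% of all genes called in either direction and 11.7% called lower. The low dose at 48 h called 0 of 9 (0.172% of all genes) and the high dose 0 of 9 (11.2% of all genes). At the low dose and 48 h 0 of the 9 had an unadjusted p under 0.05, against 2649 of all 26148 genes. At the high dose and 48 h 3 of the 9 did, against 7697 of all genes. The median ratio of the 9 genes was -0.28 at the low and -0.12 at the high dose at 3.5 h, and -0.31 and 0.28 at 48 h, while the medians of all genes were 0.00, -0.03, 0.02 and -0.01. The chaperones therefore did not move as a group: in every group some were above 0 and some below.

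**Figure D2:**
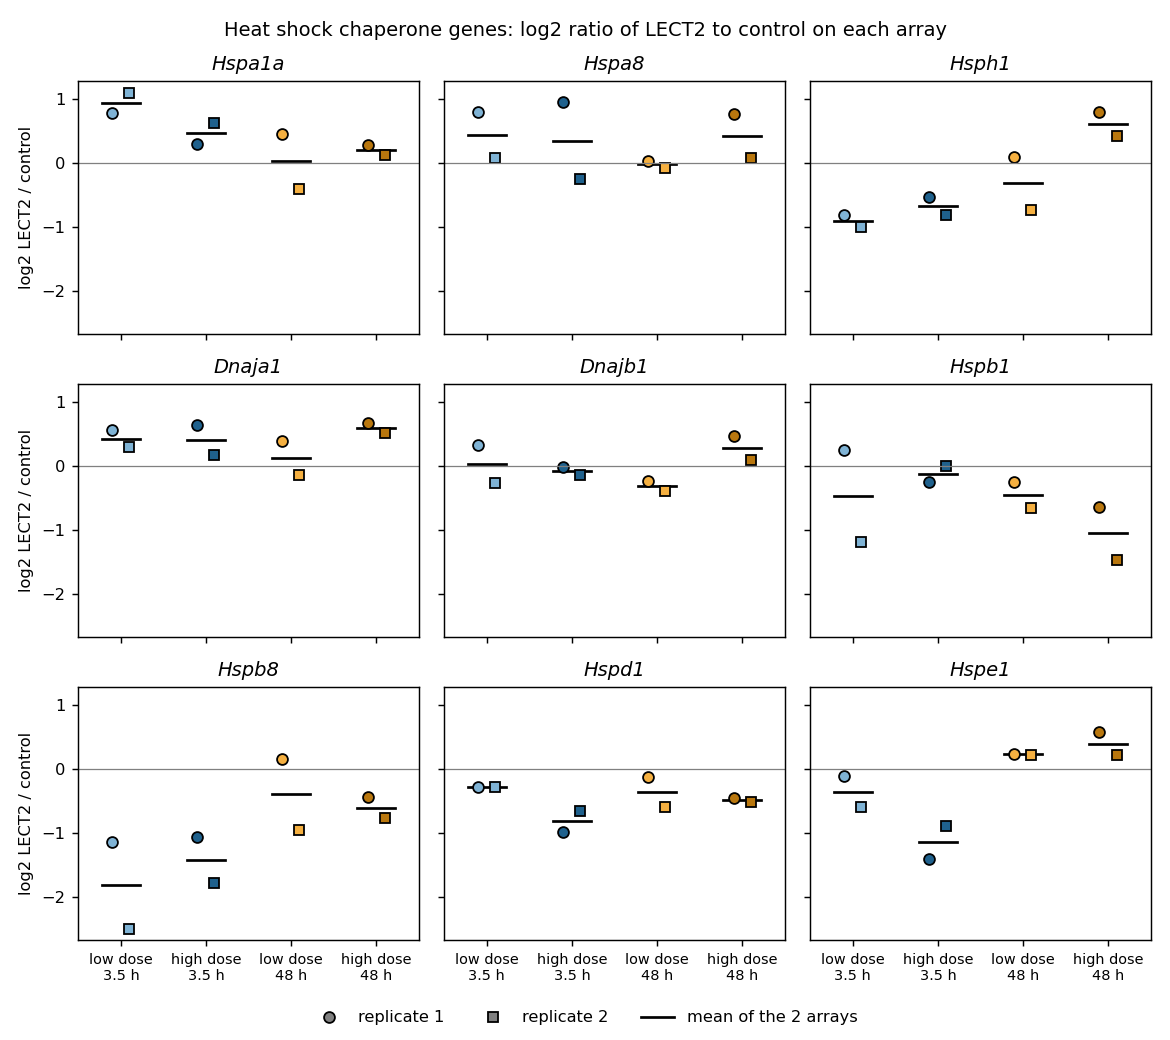
Log2 ratio of LECT2 to control (vertical axis) of each chaperone gene on each of the 8 arrays, by dose and time (horizontal axis); circles are replicate 1, squares replicate 2 and bars the mean of 2 arrays. Hspb8 is below 0 on all 4 arrays at 3.5 h, and Hspe1 is below 0 at 3.5 h and above 0 at 48 h.

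Among the HSP70 proteins, Hspa1a gave ratios of 0.78 and 1.10 at the low dose and 3.5 h, and 0.30 and 0.63 at the high dose. At 48 h the ratios of Hspa1a were 0.45 and -0.40 at the low dose, and 0.28 and 0.12 at the high dose. All 4 early arrays were above 0, the low dose lay above the high dose, and the 48 h arrays fell on both sides of 0. The mean effect was 0.94 ± 0.26 (SE, n = 2 arrays; limma adjusted p = 0.0863) at the low dose and 0.46 ± 0.26 (adjusted p = 0.239) at the high dose and 3.5 h, and neither passed. After loess of the matched scanner files both passed (0.85, limma adjusted p = 0.0133, and 0.46, adjusted p = 0.0481), whereas median centring of the same files gave 0.51 (adjusted p = 0.128) and -0.08 (adjusted p = 0.754). Hspa1a and Hspa1b are near-identical copies, so the single Hspa1a probe may also bind Hspa1b transcript.

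Hspa8, the constitutive HSP70, is covered by 3 probes that did not give one answer. The probe used for the gene gave ratios of 0.80 and 0.08 at the low dose and 0.95 and -0.25 at the high dose at 3.5 h, and 0.03 and -0.07, then 0.76 and 0.07, at 48 h. Replicate 1 was higher than replicate 2 in all 4 groups. None of its effects was called, and the limma adjusted p-values lay between 0.458 and 0.995. For the high dose at 48 h this probe had a mean of 0.42, its other probes had -0.21 and -0.89, so no direction is given for Hspa8.

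Hsph1, the HSP110 protein that exchanges nucleotides on HSP70, gave ratios of -0.82 and -0.99 at the low dose and -0.54 and -0.82 at the high dose at 3.5 h. The 48 h ratios of Hsph1 were 0.09 and -0.73 at the low dose, and 0.79 and 0.42 at the high dose. The 4 early arrays were all below 0, and the 2 arrays of the high dose at 48 h were above 0 and did not overlap them. The early means of -0.91 ± 0.26 (limma adjusted p = 0.0925) and -0.68 ± 0.26 (adjusted p = 0.101) and the late mean of 0.61 ± 0.26 (adjusted p = 0.168) did not pass the test. The second Hsph1 probe was also negative on the early arrays (means -0.58 and -0.64) but stayed negative at the high dose and 48 h (-0.42), so the late sign rests on 1 of 2 probes, and median centring of the matched files turned it too (-0.11).

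**Figure D3:**
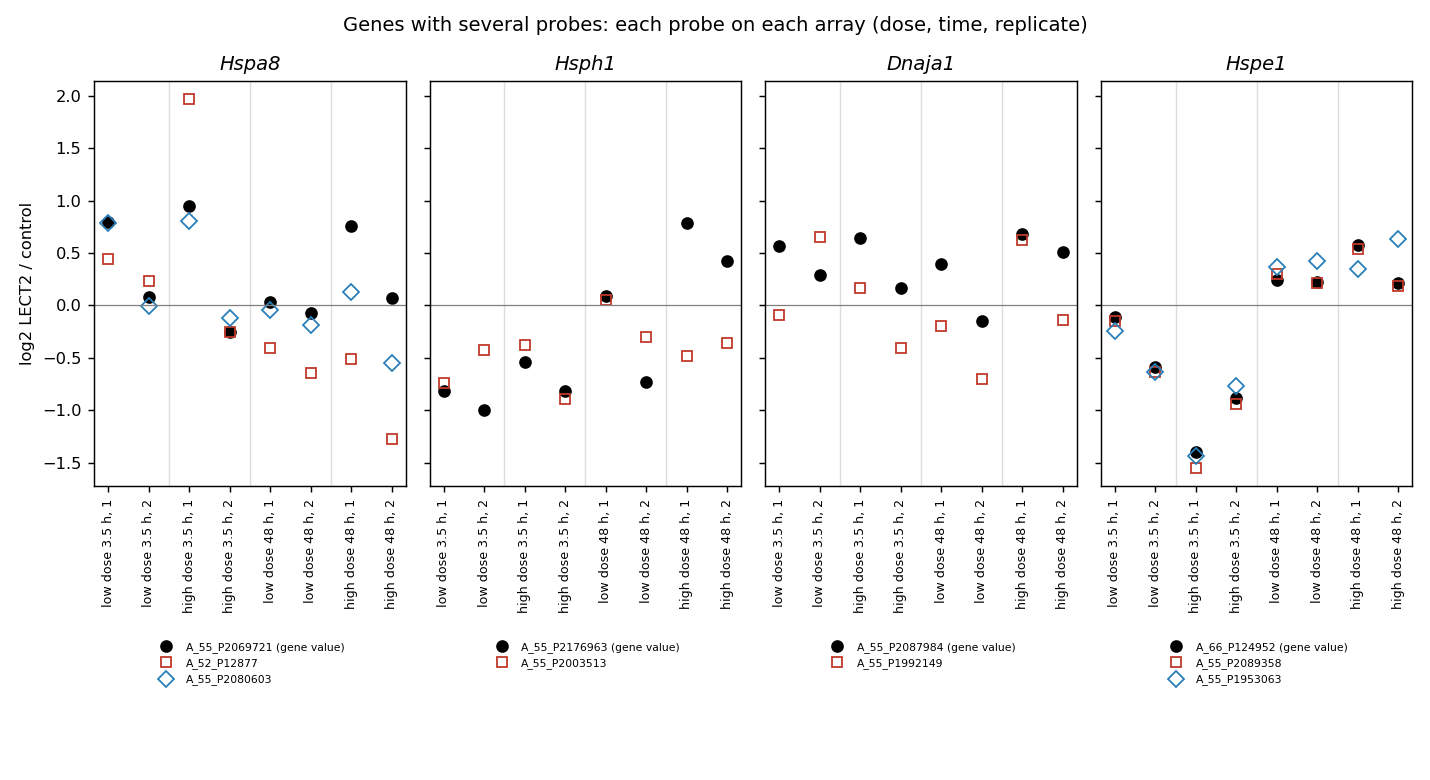
Log2 ratio of LECT2 to control (vertical axis) of every probe of the 4 genes with several probes on the 8 arrays (horizontal axis, ordered by dose, time and replicate); filled circles mark the probe used for the gene. The 3 Hspe1 probes have the same sign on every array, while the probes of Hspa8 and Hsph1 part at the high dose and 48 h. Those of Hspa8 also part in replicate 1 of the high dose at 3.5 h.

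The J-domain co-chaperones showed small ratios. Dnaja1, a class A partner of HSP70, had ratios between -0.14 and 0.68 over the 8 arrays, positive on 7 of them, with its highest mean at the high dose and 48 h (0.60 ± 0.24, limma adjusted p = 0.146). Its second probe was above background in the LECT2 channel on 5 of 8 arrays and fell on both sides of 0. Dnajb1, the class B partner that is itself strongly heat-inducible, had means of 0.04, -0.08, -0.31 and 0.28 in the 4 groups, with limma adjusted p-values between 0.459 and 0.951. With median centring of the matched files Dnajb1 was called lower at the high dose and 3.5 h (-0.76, limma adjusted p = 0.0163), a scaling that moved the median of all genes there to -0.26.

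Hspb8, a small heat shock protein that works with BAG3 in selective autophagy, had the lowest mean ratio of the 9 genes at both doses at 3.5 h; at 48 h the means of Hspb1 were lower. At 3.5 h its ratios were -1.13 and -2.49 at the low dose and -1.06 and -1.77 at the high dose. At 48 h the ratios of Hspb8 were 0.16 and -0.94 at the low dose, and -0.44 and -0.76 at the high dose. The 4 early arrays were all lower than every 48 h array, and replicate 2 was lower than replicate 1 in each group. Hspb8 fell by 1.81 ± 0.40 (SE, n = 2 arrays; 3.51-fold; limma adjusted p = 0.0463) at the low dose and by 1.41 ± 0.40 (2.67-fold; adjusted p = 0.0407) at the high dose at 3.5 h. The effects at 48 h, -0.39 ± 0.40 and -0.60 ± 0.40 (limma adjusted p = 0.800 and 0.355), were not called, and neither was the difference between times (1.42 ± 0.56 at the low dose, adjusted p = 0.440, and 0.81 ± 0.56 at the high dose, adjusted p = 0.389).

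The spread of Hspb8 between replicates at 3.5 h came with the control channel. In the matched scanner files its normalised log2 signal in LECT2-treated cells was 7.79, 8.16, 7.92 and 8.04 on the 4 early arrays (replicates 1 and 2 of the low dose, then of the high dose), and in the untreated cells of the same arrays 8.39, 10.07, 8.56 and 9.47. The treated signals lay within a narrow band, and the untreated signals of replicate 2 were above those of replicate 1. The treated signals were also low, though above background on all 8 arrays. The part of this low level in the narrow band and in the size of the fall was not tested. The summed signal of 6 mesothelial and fibroblast markers moved with it: LECT2 minus control was -0.28 and 0.06 in replicate 1 and -1.80 and -1.19 in replicate 2 at the low and high dose at 3.5 h. At 48 h that difference was -0.05 and -0.04 in replicate 1, and -1.02 and -0.65 in replicate 2. The single markers did not all follow the sum at 3.5 h. Col1a1, Col3a1 and Dcn had lower ratios in replicate 2 at both doses. Upk3b went the other way, with -2.34 and -2.78 in replicate 1 and 0.03 and -0.01 in replicate 2. Msln and Krt19 were lower in replicate 2 at the low dose and in replicate 1 at the high dose. None of the 6 markers was called in these effects, and their part in the Hspb8 result was not tested. The low-dose call was also lost after loess of the matched files (-1.25, limma adjusted p = 0.0536), and the high-dose call with their processed signals (-1.25, adjusted p = 0.0600). Leaving out either array ended the calls too: without replicate 1 the low-dose effect was -2.49 (limma adjusted p = 0.0691) and without replicate 2 it was -1.13 (adjusted p = 0.252), and at the high dose the values were -1.77 (adjusted p = 0.137) and -1.06 (adjusted p = 0.282).

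Hspb1, the small heat shock protein HSP25 of the mouse, had ratios of 0.26 and -1.19 at the low dose and -0.24 and 0.01 at the high dose at 3.5 h. The 48 h ratios of Hspb1 were -0.25 and -0.66 at the low dose, and -0.63 and -1.47 at the high dose. The early arrays fell on both sides of 0 and the 4 late arrays were all below it. The mean at the high dose and 48 h was -1.05 ± 0.37 (limma adjusted p = 0.107), past the threshold only with median centring of the matched files (-1.38, adjusted p = 0.00695).

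Hspe1, the lid of the mitochondrial chaperonin chamber, differed in sign between the times on every array. At 3.5 h its ratios were -0.11 and -0.59 at the low dose, and -1.40 and -0.89 at the high dose. The 48 h ratios of Hspe1 were 0.24 and 0.23 at the low dose, and 0.58 and 0.22 at the high dose. All early arrays were below 0 and all late arrays above it, and the high dose was lower than the low dose at 3.5 h without overlap. Hspe1 fell by 1.14 ± 0.24 (SE, n = 2 arrays; 2.21-fold; limma adjusted p = 0.0154) at the high dose and 3.5 h, and the low-dose effect of -0.35 ± 0.24 was not called (adjusted p = 0.449). The effects at 48 h, 0.23 ± 0.24 and 0.40 ± 0.24 (limma adjusted p = 0.805 and 0.308), did not pass the test, and median centring of the matched files turned both (-0.31 and -0.28).

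The 3 Hspe1 probes gave -1.10, -1.24 and -1.14 at the high dose and 3.5 h, each called in a limma fit over all probes (adjusted p = 0.0185, 0.0128 and 0.0154). On the array of replicate 1 they read -1.44, -1.55 and -1.40, and on that of replicate 2 -0.77, -0.94 and -0.89. The probes of Hspe1 thus differed less from each other than the replicates did. Without replicate 1 of the high dose at 3.5 h the effect was -0.89 (limma adjusted p = 0.159), and without replicate 2 it stayed called.

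Hspd1, which forms the walls of the same chamber, is measured by 1 probe. Its ratios were -0.28 and -0.28 at the low dose and -0.97 and -0.65 at the high dose at 3.5 h. At 48 h the ratios of Hspd1 were -0.12 and -0.58 at the low dose, and -0.44 and -0.51 at the high dose. All 8 arrays were below 0, with the arrays of the high dose at 3.5 h lowest. Hspd1 fell by 0.81 ± 0.22 (SE, n = 2 arrays; 1.76-fold; limma adjusted p = 0.0355) at the high dose and 3.5 h, and its other means of -0.28, -0.35 and -0.48 ± 0.22 were not called (adjusted p = 0.509, 0.648 and 0.192). Without replicate 1 of the high dose at 3.5 h the effect was -0.65 (limma adjusted p = 0.244) and without replicate 2 it was -0.97 (adjusted p = 0.0912). Hspd1 and Hspe1, which share the stretch with the 4-unit run shown above, were thus both lower at the high dose and 3.5 h, and their means differed in sign at 48 h (-0.48 and 0.40 at the high dose).

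**Figure D4:**
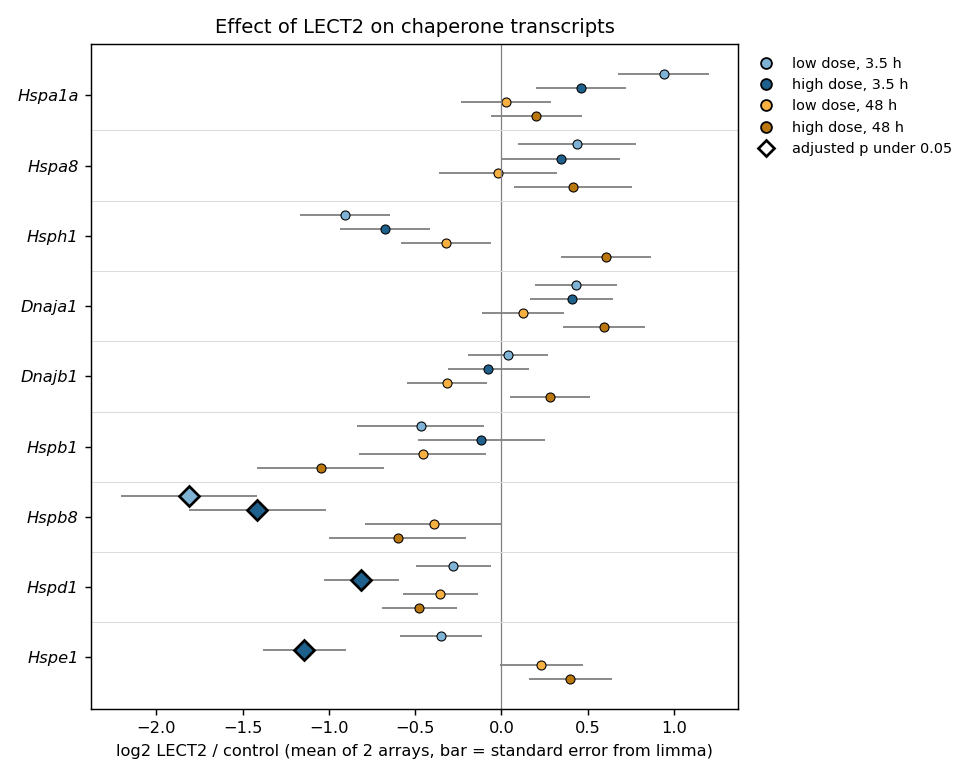
Mean log2 ratio of LECT2 to control (horizontal axis) of each chaperone gene in the 4 groups, each from 2 arrays, with the limma standard error as a bar; diamonds mark adjusted p-values below 0.05. The diamonds are Hspb8 at both doses and Hspd1 and Hspe1 at the high dose, all at 3.5 h and all below 0.

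The doses were then compared directly. High minus low dose gave 0 called chaperones at 3.5 h and 0 at 48 h with limma, as for all genes (0% called at either time; 2047 and 2744 of all genes and 1 and 1 of the 9 chaperones had an unadjusted p under 0.05). The lowest difference at 3.5 h was that of Hspe1 (-0.79 ± 0.34, limma adjusted p = 0.634), and the highest at 48 h was that of Hsph1 (0.93 ± 0.37, adjusted p = 0.448). The calls of Hspd1 and Hspe1 at the high dose only are therefore not shown to differ between doses.

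Between times, the LECT2 effect differed for 1 of the 9 chaperones. The Hspe1 effect of the high dose was higher at 48 h than at 3.5 h by 1.54 ± 0.34 (2.91-fold; limma adjusted p = 0.0374), against 8.31% of all genes called and 4.52% called higher. The fit over all probes gave 1.60, 1.60 and 1.54 for its 3 probes (limma adjusted p = 0.0363, 0.0371 and 0.0375). Hsph1 followed at 1.28 ± 0.37 (limma adjusted p = 0.0712), which passed with replicate number as a block (adjusted p = 0.0499). The second Hsph1 probe gave 0.21 for this difference (limma adjusted p = 0.710), so both values of Hsph1 rest on 1 of 2 probes. At the low dose 0 of 9 were called (0.0994% of all genes), and Hspe1 differed there by 0.58 ± 0.34 (limma adjusted p = 0.629). An unadjusted p under 0.05 was found there for 2 of the 9 and for 2720 of all 26148 genes. The Hspe1 difference of the high dose kept its sign without any 1 of the 4 arrays (1.29 to 1.80) but lost the call each time. With the scanner files as recorded it was -0.20 (limma adjusted p = 1.00). In the matched files all 3.5 h arrays lie on one slide and all 48 h arrays on the other, so slide and time cannot be told apart. The 48 h columns equal the ratios of their best-matching files within 0.01 for 99.4% of probes, the 3.5 h columns for 3.95% to 14.2%. This difference between the columns cannot be told apart from time either.

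Untreated macrophages were compared between 48 h and 3.5 h through the control channel of the matched scanner files, averaged over the 2 doses of each time and replicate (log2 signal, quantile scaled, 2 values a time). Dnaja1 rose and Hspa1a fell during culture. The control signal of Dnaja1 was 11.38 and 11.46 at 3.5 h and 13.23 and 13.56 at 48 h, and that of Hspa1a was 9.88 and 9.36 at 3.5 h and 8.39 and 8.63 at 48 h. Neither gene's values overlapped between times. Dnaja1 rose by 1.97 ± 0.21 (3.93-fold; limma adjusted p = 0.0214) and Hspa1a fell by 1.11 ± 0.24 (2.16-fold; adjusted p = 0.0465), so 2 of 9 chaperones were called, against 7.71% of all genes. The second, dimmer Dnaja1 probe, above background on 3 of the 4 control arrays at 3.5 h, gave 7.98 and 7.46 and then 7.75 and 7.71, a difference of 0.01, so the rise rests on 1 of 2 probes.

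The other chaperones of untreated cells were not called. Hsph1 gave 11.29 and 11.09 at 3.5 h and 11.83 and 12.27 at 48 h, a difference of 0.86 ± 0.23 (limma adjusted p = 0.0713; 0.0418 with replicate as a block). The second Hsph1 probe, also above background on all control arrays, gave 0.28, and the mean of both probes gave 0.57 (limma adjusted p = 0.128). Hspe1 was lower at 48 h (-0.45 ± 0.20, limma adjusted p = 0.201) on all 3 probes (-0.26 to -0.61). Hspb8 and Hspb1 had 1 low value each at 3.5 h, in replicate 1 (8.78 against 10.18 for Hspb8, and 9.12 against 10.85 for Hspb1), and the remaining differences of the 9 genes lay between 0.31 and 0.62. Cell markers moved with culture time in the same fit: B cell (Cd79b and Cd79a), mast cell (Cma1, Cpa3), T cell (Cd3g, Cd3d) and haemoglobin (Hbb-b2, Hba-a1) markers were called lower at 48 h. So were the macrophage marker Timd4 (-1.55) and the neutrophil marker S100a8 (-1.49), while 4 of 9 macrophage and 2 of 4 neutrophil markers were above 0. The part of all these markers in the chaperone results was not tested.

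**Figure D5:**
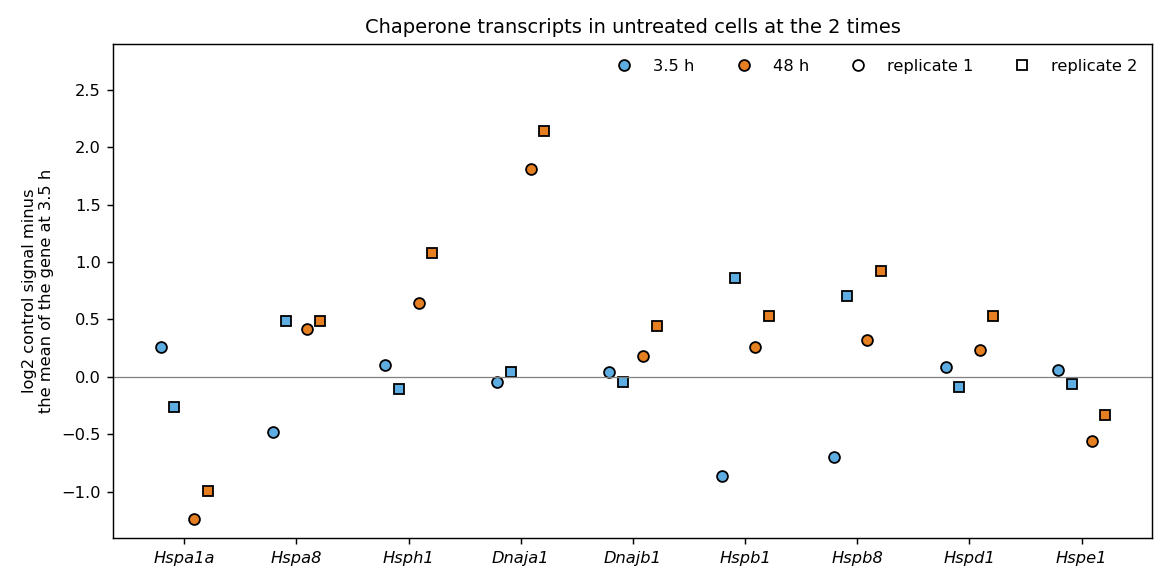
Log2 control-channel signal of each chaperone gene in untreated macrophages at 3.5 h (blue) and 48 h (orange), minus the mean of the gene at 3.5 h (vertical axis); circles are replicate 1 and squares replicate 2, each an average of 2 arrays. Dnaja1 is higher and Hspa1a lower at 48 h without overlap, and Hspb1 and Hspb8 spread widely at 3.5 h.

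The calls in untreated cells depended on single values. Without replicate 1 of 3.5 h Dnaja1 was at 1.93 (limma adjusted p = 0.0642) and Hspa1a at -0.86 (adjusted p = 0.153), and without replicate 1 of 48 h they were at 2.14 (adjusted p = 0.118) and -0.99 (adjusted p = 0.216). Without replicate 2 of 48 h Hspa1a was at -1.23 (limma adjusted p = 0.0979). Without replicate 2 of 3.5 h Hspb1 (1.26, limma adjusted p = 0.0329) and, at the edge of the threshold, Hspb8 (1.32, adjusted p = 0.04998) were called in addition. Median scaling in place of quantile scaling, which moved the median of all genes to -0.10, gave 1.25 for Dnaja1 (limma adjusted p = 0.0511) and -1.20 for Hspa1a (adjusted p = 0.0576). As for the LECT2 time difference, slide and time cannot be told apart here.

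The other genes of the chaperone network came from 9 lists of 85 genes, 83 of them tested. At the low dose 0 of 83 were called at 3.5 h (4.9% of all genes) and 0 of 83 at 48 h (0.172%) with limma. In these 2 comparisons 15 and 3 of the 83 had an unadjusted p under 0.05, against 5797 and 2649 of all 26148 genes. Of the 83 genes 10 rose and 7 fell at the high dose and 3.5 h, where 10.1% of all genes were called higher and 11.7% lower. At the high dose and 48 h 0 rose and 6 fell, against 11.2% of all genes called in either direction and 6.92% called lower, so the share of falls was near that of all genes. The median of the 83 genes was -0.03, -0.14, -0.19 and -0.16 in the 4 groups (both doses at 3.5 h, then both at 48 h, low dose first).

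Partners of the cytosolic HSP70 and HSP90 machines moved both ways at the high dose and 3.5 h. Stip1, the adaptor that hands clients from HSP70 to HSP90, gave ratios of 2.37 and 1.44 on the 2 arrays and rose by 1.91 ± 0.29 (limma adjusted p = 0.00515), and at 48 h its ratios were -1.16 and -0.77. Its effect at the high dose fell by 2.87 ± 0.41 (limma adjusted p = 0.0157) from 3.5 h to 48 h, the opposite direction to Hspe1. Dnaja2, a class A relative of Dnaja1, and Hspa4l, an HSP110 relative of Hsph1, rose by 1.17 ± 0.27 and 1.19 ± 0.23 (limma adjusted p = 0.0210 and 0.0109). Fkbp4, an HSP90 co-chaperone of steroid receptors, fell by 0.75 ± 0.21 and Dnajb9, a J-domain protein of the endoplasmic reticulum, fell by 1.21 ± 0.36 (limma adjusted p = 0.0398 and 0.0490). Hsf1 itself was at 0.10 ± 0.22 and Hsp90aa1 at 0.01 ± 0.23, neither called.

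Of 7 other small heat shock proteins 3 rose at the high dose and 3.5 h, where Hspb8 fell and 10.1% of all genes were called higher. They were the lens protein Cryaa (1.57 ± 0.39), Hspb2 (1.37 ± 0.31) and Hspb6 (1.11 ± 0.29), with limma adjusted p = 0.0270, 0.0209 and 0.0334. Hspb2 was above background on 1 of 2 control arrays. At the high dose and 48 h all 7 were below 0, where 49.4% of all genes were above 0. Of the 7 genes 1 was called, a fall, against 6.92% of all genes called lower. It was Cryab, a relative of Hspb1, which fell by 1.46 ± 0.27 (limma adjusted p = 0.0201).

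Of 7 genes of mitochondrial protein quality control, the neighbours in function of Hspd1 and Hspe1, 2 fell and 1 rose at the high dose and 3.5 h, against 21.9% of all genes called in either direction. The protease Htra2 gave -1.51 and -0.84 and fell by 1.18 ± 0.25 (limma adjusted p = 0.0152), the protease subunit Afg3l2 fell by 1.05 ± 0.23 (adjusted p = 0.0191), and the protease Yme1l1 rose by 1.12 ± 0.27 (adjusted p = 0.0254). At 48 h Htra2 again fell by 1.04 ± 0.25 (limma adjusted p = 0.0370). Clpx, the unfoldase of the matrix protease, was the gene of this list called between times at the high dose, higher by 1.97 ± 0.48 (limma adjusted p = 0.0473), the direction of Hspe1.

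Among other targets of heat shock factor 1 the metallothioneins Mt1 and Mt2, which bind metal ions and are also induced by metals and glucocorticoids, rose at the high dose and 3.5 h. Mt2 gave 3.53 and 3.21 and rose by 3.37 ± 0.41 (limma adjusted p = 0.00258), and Mt1 rose by 1.69 ± 0.31 (adjusted p = 0.00984). Zfand2a, an arsenite-inducible protein that binds the proteasome, fell by 1.00 ± 0.23 (limma adjusted p = 0.0207). The HSP70 co-chaperones Bag6 and Hspbp1 fell at the high dose and 48 h, by 0.99 ± 0.22 and 1.18 ± 0.21 (limma adjusted p = 0.0320 and 0.0167). Markers of other cells were called in the same comparison: the neutrophil gene S100a8 (2.99) and the T cell gene Cd3g (1.30) were higher, and the NK cell gene Klrb1c, not well above background in treated cells, was at least 1.54-fold lower. Of the 4 neutrophil markers tested 1 was above 0 and 3 below. Of the 8 T and NK cell markers 5 were above 0 and 3 below. The part of these markers in the results at 48 h was not tested. Hspa12a, a distant HSP70 relative, was not well above background in treated cells and was at least 1.71-fold lower at 3.5 h and at least 1.79-fold lower at 48 h at the high dose (limma adjusted p = 0.0207 and 0.00599). It was above background on only 1 of 2 control arrays at 3.5 h and on both at 48 h. For these bounds each treated array's dimmest signal still well above background stood in for the gene's own.

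In untreated cells 6 of these 83 genes rose and 1 fell from 3.5 h to 48 h. Of all 26066 genes tested there 982 rose and 1027 fell, 7.71% called in either direction. With Dnaja1 rose Hspa5, the HSP70 of the endoplasmic reticulum (2.13 ± 0.35, limma adjusted p = 0.0271), Hsp90aa1, the inducible cytosolic HSP90 (1.64 ± 0.24, adjusted p = 0.0241), Dnaja2 (1.22 ± 0.21, adjusted p = 0.0292) and the HSP90 partner Ptges3 (1.14 ± 0.20, adjusted p = 0.0299). Hsbp1, a negative regulator of heat shock factor 1, fell by 1.78 ± 0.27 (limma adjusted p = 0.0256). Heat shock factor 1 itself was at -0.33 ± 0.20 (limma adjusted p = 0.334).

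The genes with the pattern over the 8 arrays most like that of Hspa1a were Pspc1, Six5, Zadh2, Pole4 and Fzd3 (Pearson r from 0.92 to 0.96, of 16745 genes ranked), and those most like Hspd1 were Exosc1, Nudcd2, Fgr, Prkd1 and Lrrc28 (r from 0.95 to 0.96). These values share arrays and are a description. None of these 10 genes belongs to the chaperone lists. Among the 9 chaperones the same measure was 0.62 between Hspd1 and Hspe1, 0.80 between Dnaja1 and Dnajb1 and -0.54 between Hspa1a and Hspb8.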

How the data were processed

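RNA of LECT2-treated (Cy3) and untreated (Cy5) cells shared each of 8 arrays, with no dye swap, per the label fields. Dye and treatment therefore cannot be told apart. The labelling protocol names Cy3 for both channels, so the direction of every LECT2 ratio rests on the label fields. The early time, 3.5 h in the titles, is written as 3 h in the channel labels. Scanner intensities and log10 ratios were made by the authors with Agilent Feature Extraction 10.7.3.1, per the file headers and the submitters' processing notes. The deposited log2 table holds Cy5 over Cy3 and its sign was reversed here; its making is not given in the sources used here. At 48 h a column equals the ratio of its best-matching file within 0.01 for 99.4% of probes, at 3.5 h for 3.95% to 14.2%, and column medians lay between -0.22 and 0.08. Table columns were linked to scanner files by their correlation over probes above background, which put 7 columns with a file recorded under another sample.

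Probes above background (either channel, 2 or more arrays) were kept, and the brightest probe stood for a gene with several. The fit used limma 3.58.1 in R 4.3.3 with 1 mean per group over all 8 arrays (4 residual degrees of freedom; 2 for untreated cells, whose control channel was corrected by normexp with an offset of 50). Names came from RefSeq on GRCm38.p6, while the array annotation is on mm9. Deviations of same-numbered replicates correlated at 0.04, 0.17, 0.20, 0.00, -0.06 and 0.47 between groups, so the fit without a block was kept. The script was tested on simulated data. The genes reported by name were the 10 chaperones and, from each of 9 pathway lists, up to 3 called genes a comparison. Uncalled heat shock factor and HSP90 genes, called cell markers and, for Hspa1a and Hspd1, the 5 genes of most similar pattern were named too; Hsp90aa1 at 3.5 h, Hsf1 in untreated cells and the markers were picked after their values were seen. The members and lists were chosen with earlier results of these data known. Every probe of a member was also fitted on its own, chosen after seeing the data.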

Additional observations from a re-analysis of the deposited data

Results flagged for a closer look

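The effect of the high dose of LECT2 on Hspe1 differed between the times, by 1.54 on the log2 scale (limma adjusted p = 0.0374), with both arrays below 0 at 3.5 h and both above 0 at 48 h. It is listed because the difference between the effects itself passed the test. Leaving out any single array of these groups ended the call, and the difference changed sign with the scanner files as recorded. Slide and time cannot be told apart here.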

How the results depend on the processing

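Of the 122 counts of called chaperones under other settings, 91 stayed within 1.5 times the main count and 31 did not. Most of the 122 belong to comparisons with 0 chaperones called in the main fit, where nearly every count was again 0. The tally therefore does not show how stable the calls were. In the comparisons with a call, more counts moved than stayed. At the low dose and 3.5 h (1 called) the count was 0 with no filter, with trended and robust variances, with only the arrays compared and with the files as recorded, and 3 with median centring of the matched files; with loess of the matched files it was also 1, but another gene (Hspa1a, higher) in place of Hspb8; leaving out an array gave 0 to 0. At the high dose and 3.5 h (3 called) it was 1 with no filter and with only the arrays compared, 0 with the files as recorded and 5 with median centring, and 0 to 1 without an array. At the high dose and 48 h (0 called) median centring gave 2. For the time difference at the high dose (1 called) it was 0 with no filter, only the arrays compared or the files as recorded, and 2 with a strict filter, the matched files after loess or the replicate block; leaving out an array gave 0 to 0. In untreated cells (2 called) it was 1 with no filter, 0 with the files as recorded or median scaling, and 0 to 4 without a value. The replicate block called 2 chaperones for the time difference at the high dose and changed no other call of a LECT2 comparison; in untreated cells it called 3, adding Hsph1. With the files as recorded Hspe1 between times at the high dose reversed to -0.20. Median centring, which moves the median of all genes to -0.26 at the high dose and 3.5 h, called 2904 genes higher and 8952 lower there, against 2653 and 3064 in the table. The causes were not tested. With 2 arrays a group, a chaperone that missed the threshold is not shown to be unchanged.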
